A study of Mus musculus with 6 samples.

Results

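The genes described here encode the respiratory chain of the mouse, 80 genes of the 43432 listed in the deposited tables. They were chosen by symbol among protein-coding genes: the Ndufa, Ndufb, Ndufc, Ndufs and Ndufv series, Sdha to Sdhd, the Uqcr series, the Cox4 to Cox8 series, and the mt-Nd, mt-Co, mt-Cytb and mt-Atp genes. Of these, 67 lie in the nuclear genome (complex I 37, complex II 4, complex III 8 and complex IV 18) and 13 in the mitochondrial genome (complex I 7, complex III 1, complex IV 3 and complex V 2). Another 6 matching symbols were not protein coding and were left out.

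RNA-seq was performed on cortical neurons of wild-type C57BL/6 mouse embryos at E16.5, with males and females pooled, after 7 days in culture. All cultures, the 0 h controls included, had been silenced overnight with 1 µM tetrodotoxin (TTX), which blocks sodium channels, and 100 µM DL-AP5, which blocks NMDA receptors. Depolarization was by KCl at 55 mM, and cultures were harvested without it (0 h) or after 2 h or 6 h. Each time point had 2 libraries, described as biological duplicates, without a statement of whether these were separate dissections, so the p-values measure the spread between these libraries.

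The respiratory chain passes electrons from NADH through complex I, and from succinate through complex II, to ubiquinone, complex III, cytochrome c and complex IV, which reduces oxygen. Complexes I, III and IV pump protons, and ATP synthase uses the gradient to make ATP. The mitochondrial DNA encodes a few hydrophobic core subunits that are transcribed inside the organelle, while all other subunits, and every subunit of complex II, are transcribed in the nucleus and imported. Firing neurons spend much ATP on ion pumping and rely on this pathway.

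The 6 libraries held between 25959298 and 28573067 expected counts, the estimates of read pairs per gene that the deposited tables give. Below, a normalized count is an expected count divided by its library's size factor (the median of ratios to a common reference), and TPM (deposited with the counts) is a level per length of transcript. Markers of neurons (Tubb3, Map2, Snap25 and others) summed to 5375 to 5851 TPM in the 6 libraries, with 10 of 10 detected. Within that sum single markers moved in opposite directions at 6 h against 0 h, such as Tubb3 at 0.50-fold and Gad1 at 2.67-fold. The 7 astrocyte markers were also all detected. They summed to 511 to 552 TPM at 0 h, 493 to 500 at 2 h and 404 to 420 at 6 h, so their sum was lowest at 6 h, when some members of complexes I and II fell. Their part in those results was not tested. Markers of microglia stayed at or below 6.45 TPM and those of endothelial and mural cells at or below 3.11 TPM. Those of the oligodendrocyte lineage summed to 94.3 to 143 TPM, and those of progenitors to 123 to 136 TPM at 0 h and 141 to 149 TPM at 6 h, with Nes at 2.11-fold. In bulk RNA, fewer cells of a type and less RNA per cell cannot be told apart.

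The nuclear-encoded members were abundant and of very unequal level. At 0 h, summed TPM of the 67 genes was 18364 and 18992 in the 2 libraries, against 58167 and 52594 for the 13 mitochondrial genes. The highest nuclear member per length was Cox6b1, which lies at the interface of the complex IV dimer, at 2182 TPM ± 124 (SD, n = 2). It was followed by Ndufa4 (1529 TPM ± 1.89), Ndufa3 (1262 TPM ± 62.4), Cox6c (1037 TPM ± 76.0) and Cox4i1 (962 TPM ± 70.8). Neighbours in this order from Ndufa3 to Cox4i1 lay within a few SD of each other, and for Ndufa3 the effective length used for TPM was only 35.6 to 52.2 bases, (the start positions a fragment can take), so that its TPM depends strongly on the fragment length. Complex I core subunits were lower, for example Ndufs1 at 111 TPM ± 5.08.

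Where a subunit has tissue-linked isoforms, the widely expressed form carried nearly all of the signal. At 0 h Cox6a1 stood at 221 TPM and Cox7a2 at 582 TPM, while the muscle and heart forms Cox6a2 and Cox7a1 held 2.1 to 4.1 and 1.0 to 8.0 normalized counts over the 6 libraries. The testis form Cox6b2 was at 21.4 TPM at 0 h, whereas the lung form Cox4i2 held 0 to 2.1 and the hypoxia-linked Ndufa4l2 0 to 9.3 normalized counts. Cox8b and Cox8c had no count in any library, and Cox8a was at 187 TPM at 0 h. In all, 60 of the 67 nuclear members averaged at least 10 normalized counts, and medians below are over these 60.

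At 2 h of depolarization most nuclear-encoded members had small positive log2 fold changes, and few passed the test. The median log2 fold change was 0.22, against 0.01 over all genes with the same minimum, and 55 of 60 lay above the all-gene median. Of the 64 members with an adjusted p, 7 rose and 0 fell (DESeq2 Wald test, adjusted p at most 0.05). In the same fit 12.3% of all genes tested rose and 14.2% fell, so that the share of risers among members, 10.9%, was near the background while the share of fallers was below it. No member fell at an unadjusted p below 0.05 either, in DESeq2 or in edgeR. Normalized counts were above both 0 h libraries in both 2 h libraries for 38 of 60 members, compared with 32.3% of all genes, and below in both for 1 of 60, compared with 32.6%.

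The 7 members that rose at 2 h were 3 genes of complex III, 3 with a complex IV name and Ndufa4. Uqcrh, the acidic hinge protein of complex III that assists the transfer to cytochrome c, had normalized counts of 3206 and 3047 at 0 h, 3914 and 4090 after 2 h, and 3838 and 3685 after 6 h. Both depolarized time points lay above the controls without overlap, with a log2 fold change at 2 h of 0.36 ± 0.10 (SE; adjusted p = 0.00278). Uqcrq, a small complex III subunit at the membrane, changed most, from 99.4 and 115 to 159 and 212 counts, and stood at 114 and 142 at 6 h. Its log2 fold change at 2 h was 0.79 ± 0.28 (DESeq2 adjusted p = 0.0217), on counts far lower than those of the other risers. Uqcrc2, a core protein of complex III, rose by 0.24 ± 0.09 (DESeq2 adjusted p = 0.0430).

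Of the complex IV subunits, the small membrane proteins Cox7c, Cox6c and Cox7a2 rose by 0.32, 0.27 and 0.26 on the log2 scale (DESeq2 adjusted p = 0.0233, 0.0233 and 0.0380). The calls of Uqcrc2, Cox6c and Cox7a2 at 2 h were lost with edgeR and with a replicate block, a term for the labels' replicate numbers. Cox7c shared reads with another gene in 4 libraries, so its count is partly an allocation by the counting program. Ndufa4 carries a complex I name but is now counted as a complex IV subunit. In the classes used here it stays, by name, among the accessory subunits of complex I. It had 4128 and 3828 normalized counts at 0 h, 4933 and 4840 after 2 h, and 4818 and 4642 after 6 h, a log2 fold change of 0.30 ± 0.10 at 2 h (DESeq2 adjusted p = 0.0161). These rises were small, at most 1.28-fold except for Uqcrq at 1.73-fold, and 0 members passed the 2-fold limit used in the study, which 3.62% of all genes passed upwards and 5.94% downwards.

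Further members with large or small values at 2 h did not pass the test. The highest were Uqcr10 (0.40) and Uqcr11 (0.39), small subunits of complex III, and Ndufb7 (0.38) and Ndufa13 (0.36) of complex I. The lowest were Uqcrb (-0.13), Ndufs1 (-0.04), Ndufa3 (-0.02), Cox5b (-0.02) and Ndufs3 (0.00).

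The number called at 2 h and the size of the shift depended on single libraries. The median of the nuclear members was 0.26 without replicate 1 of 2 h and 0.08 without replicate 2 of 2 h. These medians lay 0.28 and 0.11 above all genes. A fit without a library leaves a single library in its group, so the spread within that group is not measured. Without replicate 1 of 2 h, 24 nuclear members were called higher, and without replicate 2 of 2 h, 3 were. Without either library of 0 h or either library of 6 h, 0 were called. The edgeR test called 4, and counts corrected for each library's trend on GC content gave 22. With library totals in place of median-of-ratios size factors, the median of all genes moved to -0.16 and that of the nuclear members to 0.06, so that the members still lay 0.21 above all genes but 0 were called.

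**Figure D1:**
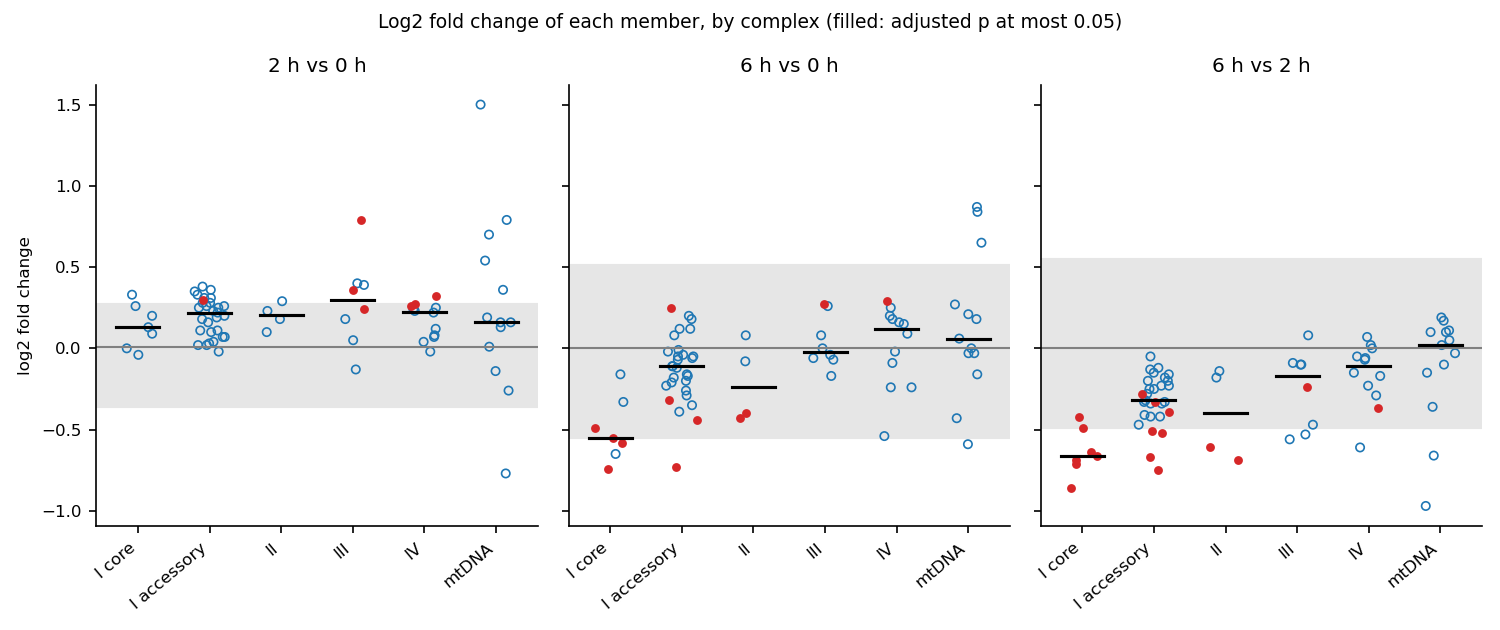
Log2 fold change (DESeq2) of each member averaging at least 10 normalized counts, by complex, in the 3 comparisons. Filled points passed an adjusted p of 0.05, black bars are group medians, and the grey line and band are the median and middle 50% of all genes. The 7 complex I core subunits lay below the all-gene line at 6 h in both right-hand panels.

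At 6 h some members stood below and some above the controls. Against 0 h, the median over the 60 nuclear members was -0.08 and 42 of 60 lay below the all-gene median, which was close to 0. Of 64 members with an adjusted p, 9 fell (14.1%) and 4 rose (6.25%), while 21.7% of all genes fell and 23.7% rose (DESeq2 Wald test). Both shares of members were below the background. The 6 h libraries lay below both 0 h libraries for 28 of 60 members, compared with 42.0% of all genes, and above both for 13 of 60, compared with 42.7%. All 9 members that fell belonged to complexes I and II, among them Ndufs1, Ndufs3, Ndufv2, Ndufa6, Ndufv3, Ndufb3, Sdhb and Sdhc. Without replicate 2 of 0 h, or either library of 6 h, 4 members were called lower, and without any 1 of the 0 h or 6 h libraries 0 were called higher. With library totals, which moved the all-gene median to -0.25, 28 members were called lower and 1 higher, and the members kept nearly the same distance from all genes (-0.07).

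Complex I is built of an evolutionarily conserved core, which binds the flavin, the iron-sulfur clusters and ubiquinone, and of accessory subunits around it. Its 7 nuclear core subunits had a median log2 fold change of -0.55 at 6 h against 0 h. Of these, 4 of 7 fell (57.1%), where 21.7% of all genes fell. The 29 accessory subunits with enough counts, Ndufa4 among them, had a median of -0.11, and 3 of 30 fell (10.0%). Complex II had a median of -0.24, complex III of -0.02 and complex IV of 0.12. The difference between these classes was not tested.

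Ndufs1, the largest core subunit, which holds iron-sulfur clusters of the NADH-oxidizing arm, had normalized counts of 3616 and 3416 at 0 h, 3458 and 3370 after 2 h, and 2079 and 2143 after 6 h. The 0 h and 2 h libraries overlapped and both 6 h libraries lay well below them. The gene lies at chr1:63143596-63176833 (GRCm38). The log2 fold change at 6 h was -0.74 ± 0.10 (DESeq2 adjusted p = 6.73e-12), a decrease to 0.60 of the 0 h level. In TPM it went from 115 and 108 to 57.8 and 63.0. Ndufs1 shared reads with another gene in 5 libraries and overlaps Eef1b2 and Ino80dos in the annotation.

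Ndufv2, another iron-sulfur subunit of the NADH-oxidizing arm, had 1864 and 1733 normalized counts at 0 h, 1981 and 1963 after 2 h, and 1275 and 1138 after 6 h. The 6 h libraries were apart from the other 4, with a log2 fold change against 0 h of -0.58 ± 0.12 (DESeq2 adjusted p = 1.64e-05). Ndufs3, a subunit of the arm that carries electrons to ubiquinone, fell by 0.49 ± 0.15 on the log2 scale (DESeq2 adjusted p = 0.00292). The decrease of Ndufs1 and Ndufv2 was called in all 9 other settings and after removal of any 1 of the 6 libraries, whereas that of Ndufs3 was called in 9 settings but after removal of only 2 of the 6 libraries.

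Ndufs7, Ndufs8 and Ndufv1 had values in the same direction that did not pass the test against 0 h. Ndufs7, an iron-sulfur protein next to the ubiquinone site, had 173 and 205 counts at 0 h and 108 and 132 at 6 h (log2 fold change -0.65 ± 0.30, DESeq2 adjusted p = 0.0633). For Ndufs8 the value was -0.33 ± 0.17 and for the flavin-binding Ndufv1 it was -0.16 ± 0.12 (DESeq2 adjusted p = 0.109 and 0.280).

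Among the accessory subunits of complex I, Ndufa6 fell most. It belongs to the LYR-motif proteins and sits on the ubiquinone module. Its normalized counts were 356 and 360 at 0 h, 360 and 365 after 2 h, and 202 and 230 after 6 h, so that the first 4 libraries lay between 356 and 365 and both 6 h libraries were much lower (log2 fold change -0.73 ± 0.18, DESeq2 adjusted p = 1.89e-04). Ndufv3, which attaches to the NADH-oxidizing arm, fell by 0.44 ± 0.14 and Ndufb3 of the membrane arm by 0.32 ± 0.13 on the log2 scale (DESeq2 adjusted p = 0.00516 and 0.0317). The call of Ndufa6 was lost without replicate 1 of 6 h, that of Ndufv3 without replicate 2 of 0 h or either 6 h library, and that of Ndufb3 with the replicate block and without any 1 of the 0 h or 6 h libraries.

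In complex II, which is also succinate dehydrogenase of the tricarboxylic acid cycle, 2 of 4 subunits fell at 6 h against 0 h (21.7% of all genes). Sdhc, one of the membrane anchors, had normalized counts of 2513 and 2680 at 0 h, 2846 and 3039 after 2 h, and 1953 and 1893 after 6 h. Sdhb, the iron-sulfur subunit, had 1824 and 2068, then 2160 and 2584, then 1380 and 1561. Both genes were highest at 2 h and lowest at 6 h, without overlap between time points. Log2 fold changes at 6 h against 0 h were -0.43 ± 0.11 for Sdhc and -0.40 ± 0.15 for Sdhb (DESeq2 adjusted p = 3.15e-04 and 0.0218). The call of Sdhc was lost without replicate 2 of 0 h or of 6 h, and that of Sdhb without any 1 of the 0 h or 6 h libraries. Sdha, the flavoprotein, and Sdhd, the other anchor, had log2 fold changes of -0.08 ± 0.09 and 0.08 ± 0.12, which did not pass the test (DESeq2 adjusted p = 0.493 and 0.612).

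The 4 members that rose at 6 h against 0 h were Cox6c (0.29 ± 0.10, DESeq2 adjusted p = 0.00737), Uqcrh (0.27 ± 0.10, adjusted p = 0.0215), Ndufa4 (0.25 ± 0.10, adjusted p = 0.0324) and the rare isoform Cox7b2. Cox6c had 2836 and 2945 normalized counts at 0 h, 3475 and 3491 after 2 h, and 3579 and 3492 after 6 h. For Ndufa4 the call was kept in 3 of 9 other settings, for Uqcrh in 6 of 9 and for Cox6c in 8 of 9, and those of Ndufa4 and Uqcrh were lost with edgeR and with the replicate block. Cox7b, the common isoform of its subunit, had 3131 and 3040 counts at 0 h and 3867 and 3477 at 6 h, just outside the threshold (DESeq2 adjusted p = 0.0504). Cox7b2, a testis-linked isoform, was the member that passed 2-fold upwards, as did 9.10% of all genes, with 0 and 0 counts at 0 h, 3 and 2 after 2 h, and 6 and 6 after 6 h. Against a floor of 3 counts per library it was at least 2.48-fold higher at 6 h. No member passed 2-fold downwards, which 10.2% of all genes did.

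**Figure D2:**
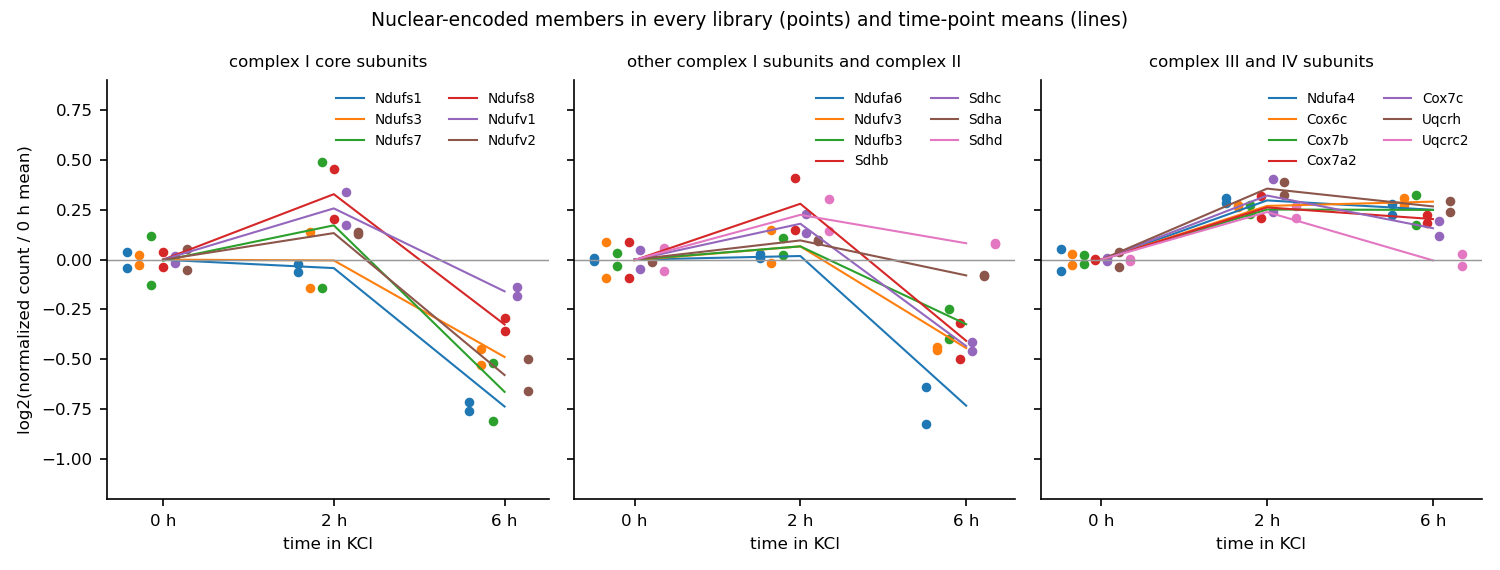
Normalized count of selected nuclear-encoded members relative to their own 0 h mean (log2 scale) in every library. Points are the 6 libraries, shifted sideways per gene for legibility, and lines join the time-point means. Complex I core subunits dropped between 2 h and 6 h (left), whereas the complex III and IV subunits shown, Ndufa4 among them, stayed above the 0 h mean at 6 h except Uqcrc2, which returned to it (right).

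From 2 h to 6 h the decrease was broader. Of 60 nuclear members with an adjusted p, 18 fell and 0 rose, in a comparison where 21.2% of all genes fell and 24.1% rose (DESeq2 Wald test). No member rose at an unadjusted p below 0.05, in DESeq2 or in edgeR. The median was -0.29 and 57 of 60 members lay below the all-gene median. Both 6 h libraries were below both 2 h libraries for 44 of 60 members, compared with 37.8% of all genes, and above both for 2 of 60, compared with 39.7%. No member passed 2-fold in this comparison, while 8.02% of all genes did so downwards and 10.1% upwards. This comparison shares its 6 h libraries with the one above and its 2 h libraries with the earlier one, so the 3 comparisons are not independent of each other.

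All 7 nuclear core subunits of complex I fell between 2 h and 6 h (21.2% of all genes), with a median log2 fold change of -0.66. Values ranged from -0.42 ± 0.12 for Ndufv1 (DESeq2 adjusted p = 0.00135) to -0.86 ± 0.30 for Ndufs7 (DESeq2 adjusted p = 0.0118). Ndufs8, an iron-sulfur subunit, had 514 and 611 normalized counts at 2 h and 348 and 365 at 6 h (-0.66 ± 0.17, DESeq2 adjusted p = 4.31e-04). These 7 calls were kept in all 9 other settings. Removal of single libraries ended the call in at least 1 case for Ndufs3, Ndufs7, Ndufs8 and Ndufv1 and in no case for Ndufs1 and Ndufv2.

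Another 7 members that fell from 2 h were accessory subunits of complex I: Ndufa6 (-0.75), Ndufb7 (-0.67), Ndufb4 (-0.52), Ndufv3 (-0.51), Ndufb3 (-0.39), Ndufa8 (-0.33) and Ndufa10 (-0.28). The calls of Ndufa8 and Ndufa10 from 2 h were lost with the replicate block, that of Ndufa8 also with GC correction, and each was kept in 1 of 6 fits with a library left out. In those fits the call of Ndufb3 was also kept in 1 and that of Ndufb4 in 2, those of Ndufb7 and Ndufv3 in 4 and that of Ndufa6 in 5. Ndufb4 shared reads with a processed copy of itself, Ndufb4c on chromosome 15, in 5 libraries. The copy held 331 to 586 expected counts per library and Ndufb4 only 232 to 409, so the value of Ndufb4 is partly an allocation. The log2 fold change of the copy from 2 h to 6 h was -0.60 ± 0.17. The list was completed by Sdhb (-0.69 ± 0.15), Sdhc (-0.61 ± 0.11), Uqcrc2 (-0.24 ± 0.09) and Cox7a2l (-0.37 ± 0.13). The call of Uqcrc2 was lost with the replicate block and in 4 of those 6 fits, and that of Cox7a2l in 5. Summed TPM gave the same order of classes as the counts. The 7 core subunits held 802 TPM in both 0 h libraries, 736 and 818 after 2 h, and 530 and 513 after 6 h. The 18 complex IV genes held 6844 and 7113, then 6931 and 8006, then 7161 and 7128 TPM. The core subunits of complex I thus fell below both earlier time points in both 6 h libraries, whereas for complex IV the 6 h libraries lay inside the range of the others.

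At the other end, the highest values from 2 h to 6 h were those of Uqcrb (0.08), Cox5a (0.07), Cox6c (0.02), Cox7b (-0.00) and Cox6b1 (-0.05), none of which passed the test.

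Single libraries changed the number that fell, to 6 members without replicate 1 of 6 h, 9 without replicate 2 of 6 h, 11 without replicate 2 of 2 h and 38 without replicate 1 of 2 h, and in no case was a nuclear member called higher. With library totals 29 members were called lower, while the distance of the median from all genes was unchanged at -0.29. Without replicate 2 of 2 h the median was -0.16 (distance -0.19), and without replicate 1 of 2 h it was -0.37 (distance -0.39).

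Promoters of nuclear respiratory genes are known to hold sites for nuclear respiratory factor 1 (NRF1), the ETS-family factor GABP (also called NRF2) and YY1. RefSeq promoter sequences (250 bases before to 50 after the start, GRCm38.p6) were on hand for 53 of the 67 nuclear members, and 3 letter strings were searched on both strands: GCATGCGC as the core of an NRF1 site, CCGGAAG for GABP and AAGATGGC for YY1. None of the strings is contained in another. The NRF1 string occurred in 13.2% of member promoters (7 genes) and in 3.05% of the promoters of 27025 genes, the GABP string in 20.8% (11 genes) and 9.93%, and the YY1 string in 13.2% (7 genes) and 3.19%. At least 1 of the strings was found for 22 of 53 members (41.5%) and for 14.9% of all genes. Among the 14 members with a promoter that fell at 6 h in either comparison, 7 held a string, as did 15 of the other 39 (38.5%). A match describes the letters of the window and is not evidence of binding.

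The promoters of 3 members that fell (Sdhb, Ndufs3 and Ndufa6) and 1 that rose (Uqcrh), each with a match, are given 5′ to 3′ along the gene with the matched strings in capitals. Their positions in GRCm38.p6 are chr4:140961021-140961320 (plus strand) for Sdhb, chr2:90904672-90904971 (minus) for Ndufs3, chr15:82354242-82354541 (minus) for Ndufa6 and chr4:116075021-116075320 (minus) for Uqcrh.
Sdhb: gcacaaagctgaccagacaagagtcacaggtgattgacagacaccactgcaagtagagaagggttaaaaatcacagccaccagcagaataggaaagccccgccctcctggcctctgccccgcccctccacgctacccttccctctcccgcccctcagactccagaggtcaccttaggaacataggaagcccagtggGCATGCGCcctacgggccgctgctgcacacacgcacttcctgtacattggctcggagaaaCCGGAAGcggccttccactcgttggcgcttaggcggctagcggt
Ndufs3: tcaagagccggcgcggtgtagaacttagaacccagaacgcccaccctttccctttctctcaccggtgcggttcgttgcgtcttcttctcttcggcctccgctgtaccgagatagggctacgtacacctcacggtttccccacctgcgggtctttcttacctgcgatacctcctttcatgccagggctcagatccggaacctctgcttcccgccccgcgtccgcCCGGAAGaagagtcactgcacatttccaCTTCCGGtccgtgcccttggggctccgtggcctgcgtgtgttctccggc
Ndufa6: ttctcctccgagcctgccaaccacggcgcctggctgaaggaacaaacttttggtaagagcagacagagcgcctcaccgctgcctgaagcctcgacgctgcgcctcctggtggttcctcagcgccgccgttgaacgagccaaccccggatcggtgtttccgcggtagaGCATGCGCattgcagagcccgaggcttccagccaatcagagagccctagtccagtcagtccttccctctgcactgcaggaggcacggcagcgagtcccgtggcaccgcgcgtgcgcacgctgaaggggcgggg
Uqcrh: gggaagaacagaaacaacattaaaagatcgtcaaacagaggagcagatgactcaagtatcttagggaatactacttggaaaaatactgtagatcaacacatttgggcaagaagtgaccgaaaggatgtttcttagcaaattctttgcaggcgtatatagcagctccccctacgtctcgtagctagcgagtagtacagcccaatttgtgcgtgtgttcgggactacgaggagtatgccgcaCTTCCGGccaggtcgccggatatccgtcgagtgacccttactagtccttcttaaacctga
Sdhb holds an NRF1 string 54 bases before the start and a GABP string just after it. Ndufs3 holds the GABP string on each strand, one of them 27 bases before the start. Ndufa6 holds one NRF1 string 83 bases before its start, and Uqcrh one GABP string on the opposite strand 10 bases before its start. The GABP string thus stood near the start of genes that fell and of one that rose.

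The mitochondrially encoded members made up a large share of the sequenced RNA and had no change that passed the test. Their 13 genes took 3.13% and 2.88% of all counts at 0 h, 3.45% and 2.26% after 2 h, and 2.84% and 2.69% after 6 h. The 67 nuclear members took 0.44% and 0.45%, then 0.42% and 0.48%, then 0.36% in both 6 h libraries. Binomial 95% intervals on these shares were at most 0.010 percentage points to either side and cover counting error only. The 2 libraries of 2 h held the highest and the lowest mitochondrial share of all 6, so that the spread between replicates there was wider than any difference between time points.

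In each library the summed mitochondrial counts were divided by the summed nuclear member counts, a ratio that needs no scaling between libraries. On the log2 scale it was 2.84 and 2.69 at 0 h, 3.05 and 2.23 after 2 h, and 2.98 and 2.89 after 6 h. Means differed by -0.13 at 2 h against 0 h, by 0.17 at 6 h against 0 h and by 0.29 at 6 h against 2 h (two-sided exact permutation p = 1.00, 0.333 and 1.00, where 0.333 is the smallest p that 2 against 2 libraries allow). Over the 3 time points at once the exact permutation p was 0.800, with 15 arrangements, and on GC-corrected counts it was 0.0667, the smallest that 15 arrangements allow. At 6 h both libraries lay above both 0 h libraries, with 0.36% against 0.44% to 0.45% of counts in nuclear members. With GC-corrected counts the ratio was 2.80 and 2.84 at 0 h, 2.87 and 2.88 after 2 h, and 2.67 and 2.62 after 6 h, which turned the direction at 6 h to -0.17 against 0 h. The correction fits each library's departure from the mean of all 6 libraries. It cannot separate a trend of single libraries from a difference between time points that runs with GC content.

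**Figure D3:**
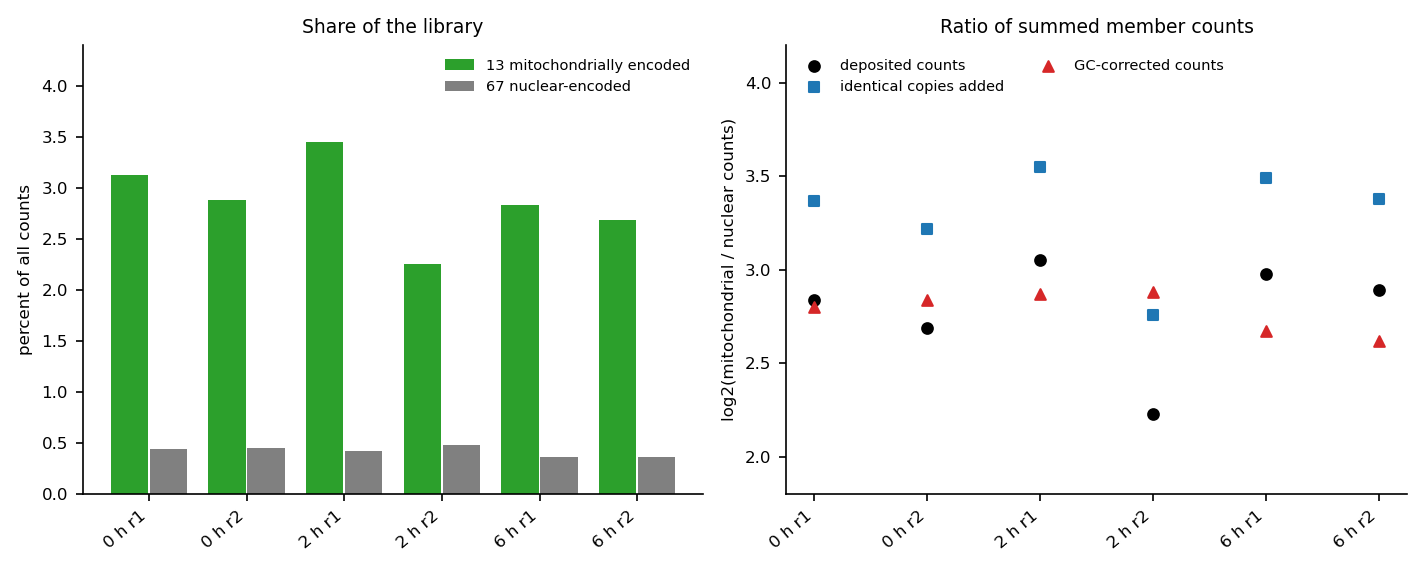
Left, share of all counts in the 13 mitochondrially encoded and the 67 nuclear-encoded members in each of the 6 libraries (r1 and r2 are the replicates). Right, log2 ratio of summed mitochondrial to summed nuclear member counts with the deposited counts, with the chromosome 1 copies added and with GC-corrected counts. The deposited ratio ranged from 2.23 to 3.05, with both ends at 2 h.

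Of the 13 mitochondrial members 0 were called in any of the 3 comparisons by DESeq2 or by edgeR. At an unadjusted p below 0.05, DESeq2 had 0 and edgeR 1 at 2 h and 1 at 6 h against 0 h, both higher. The standard errors were wide, with a median of 0.27 against 0.14 for the nuclear members. The catalytic subunit of complex IV, mt-Co1 (chrM:5328-6872), was the most abundant member, with 322980 and 297354 normalized counts at 0 h, 402585 and 274060 after 2 h, and 364212 and 336593 after 6 h. Its time points overlapped at 2 h and its log2 fold changes were 0.13 (95% interval -0.25 to 0.50) at 2 h and 0.18 (-0.20 to 0.55) at 6 h. Cytochrome b, mt-Cytb, had 146252 and 131247, then 168568 and 110425, then 140853 and 131578 counts, with intervals of -0.39 to 0.40 at 2 h and -0.42 to 0.37 at 6 h.

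The complex I genes of the mitochondrial genome with abundant and whole counts did not pass the test in any comparison. For mt-Nd1, part of the ubiquinone channel, counts were 62993 and 58596 at 0 h, 88563 and 49840 after 2 h, and 71785 and 68870 after 6 h. For the proton-pumping subunits mt-Nd2 and mt-Nd4 the 6 h log2 fold changes were 0.27 ± 0.27 and 0.06 ± 0.23, and for mt-Nd5 and mt-Nd6 they were -0.03 ± 0.24 and -0.16 ± 0.27. In each of these 5 genes replicate 1 of 2 h stood above replicate 2. The genes mt-Nd5 and mt-Nd6 overlap on opposite strands, and the strand setting of the counting was not given in the sources used here.

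The split between the 2 h libraries was also seen in nuclear genes of low GC content. Over 6 mitochondrial members with whole counts and a mean of at least 1000, replicate 1 of 2 h exceeded replicate 2 by a median of 0.81 on the log2 scale. The GC content of these 6 ran from 34.1% to 39.1%, with a median of 36.4%. Over 785 nuclear genes that lay within the GC range of all 13 members (31.9% to 41.1%) the median was 0.80, although their own GC content had a higher median, 39.7%. Over the 60 nuclear members, whose GC content ran from 41.3% to 60.9%, it was -0.17. At 0 h the same medians were 0.19, 0.16 and -0.00, and at 6 h 0.06, 0.05 and -0.04.

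The mitochondrial result at 2 h depended on this split. Without replicate 1 of 2 h, 7 of 13 members were called lower than 0 h (median log2 fold change -0.30), and without replicate 2, 6 were called higher (median 0.47). From 2 h to 6 h, 8 were called higher without replicate 1 of 2 h and 6 lower without replicate 2, and at 6 h against 0 h, 4 were called higher without either. After a correction of each library for its trend on GC content, 6 were called higher at 2 h (median 0.37), 4 lower and 1 higher at 6 h against 0 h (median -0.23), and 9 lower from 2 h to 6 h (median -0.64). The part of base composition in these differences was not tested beyond that correction. The correction also removes any difference between time points that runs with GC content.

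The deposited counts of 6 of the 13 mitochondrial genes are also split with near-identical copies in the nuclear genome. A stretch of mitochondrial DNA inserted on chromosome 1 is annotated as the pseudogenes Gm29216, Gm28661, Gm10925, Gm28437, Gm28438, Gm10222 and Gm28439, side by side in the mitochondrial order. Their transcripts in GENCODE M21 (GRCm38) were aligned here to those of the mitochondrial genes. Gm28661 matched mt-Co2 at 681 of 681 bases, Gm28437 matched mt-Co3 at 783 of 783, Gm10925 matched mt-Atp6 at 678 of 678 and Gm10222 matched mt-Nd4l at 294 of 294. Gm28438 matched mt-Nd3 at 344 of 345 bases, the exception being T3C (the mitochondrial base first, counted from 1 at the 5′ end). The first 60 bases of this pair show how little separates a mitochondrial from a nuclear read, with the differing base in capitals.
mt-Nd3: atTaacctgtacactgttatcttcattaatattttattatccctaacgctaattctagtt
Gm28438: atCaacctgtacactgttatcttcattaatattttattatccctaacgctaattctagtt
Reads that lie wholly inside an identical stretch fit both loci equally well, so their assignment rests on the counting model.

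The counting program had credited most of the shared reads to the copies. For mt-Co2, another catalytic subunit of complex IV, the mitochondrial gene held 123 to 761 counts per library and Gm28661 held 90162 to 145227, or 99.3% to 99.9% of both. For mt-Co3 the share given to the copy was 96.9% to 98.6%, for mt-Nd3 96.2% to 98.6%, for mt-Nd4l 95.2% to 98.3% and for mt-Atp6 77.1% to 87.7%. For mt-Co1 it was at most 1.31%, and there the copy Gm29216 covers only 492 of 1545 bases and differs at 6 of them. For mt-Nd4 the copy Gm28439 held 0 counts. It covers 876 of 1378 bases and matches at all 876. The TPM of these members hold only the reads credited to them, and which locus the shared reads came from was not tested. For example, mt-Co2 was listed at 72.2 TPM ± 74.0 at 0 h against 17735 TPM ± 819 for mt-Co1. Adding the copies raised the mitochondrial share to 4.50% and 4.17% of counts at 0 h, 4.87% and 3.26% after 2 h, and 4.03% and 3.78% after 6 h. The copies made up 28.7% to 31.0% of that sum in every library.

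With the copies added, the large fold changes of the split genes shrank. The log2 fold change at 6 h against 0 h went from 0.87 to 0.22 for mt-Atp6, the proton channel of ATP synthase, and from 0.65 to -0.01 for mt-Co3. For mt-Co2 the summed normalized counts were 114184 and 107248 at 0 h, 145385 and 93850 after 2 h, and 127740 and 114385 after 6 h, a log2 fold change of 0.13 ± 0.21 at 6 h. The exception was mt-Nd4l, the smallest complex I subunit of the mitochondrial genome. Its sum with Gm10222 was 3796 and 2709 at 0 h, 2801 and 1619 after 2 h, and 1146 and 1493 after 6 h. It was called lower at 6 h against 0 h (-1.30 ± 0.28, DESeq2 adjusted p = 1.86e-05) and against 2 h (-0.74 ± 0.28, DESeq2 adjusted p = 0.0207). The reading frame of mt-Nd4l overlaps that of mt-Nd4, and its transcript of 297 bases is shorter than the fragments sequenced, which the length columns of the tables place at 302 to 322 bases on average. The addition of the copies was chosen after the deposited counts had been seen.

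Short transcripts also limit the TPM of 2 other members. The gene mt-Atp8, of 204 bases, had an effective length of 0 and is listed at 0 TPM in all libraries, although its normalized counts were 13.3 and 5.9 at 0 h, 43.9 and 10.3 after 2 h, and 21.4 and 12.9 after 6 h. The effective length of mt-Nd3 was 33.9 to 50.1 bases and that of mt-Nd4l 6.9 to 15.3.

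**Figure D4:**
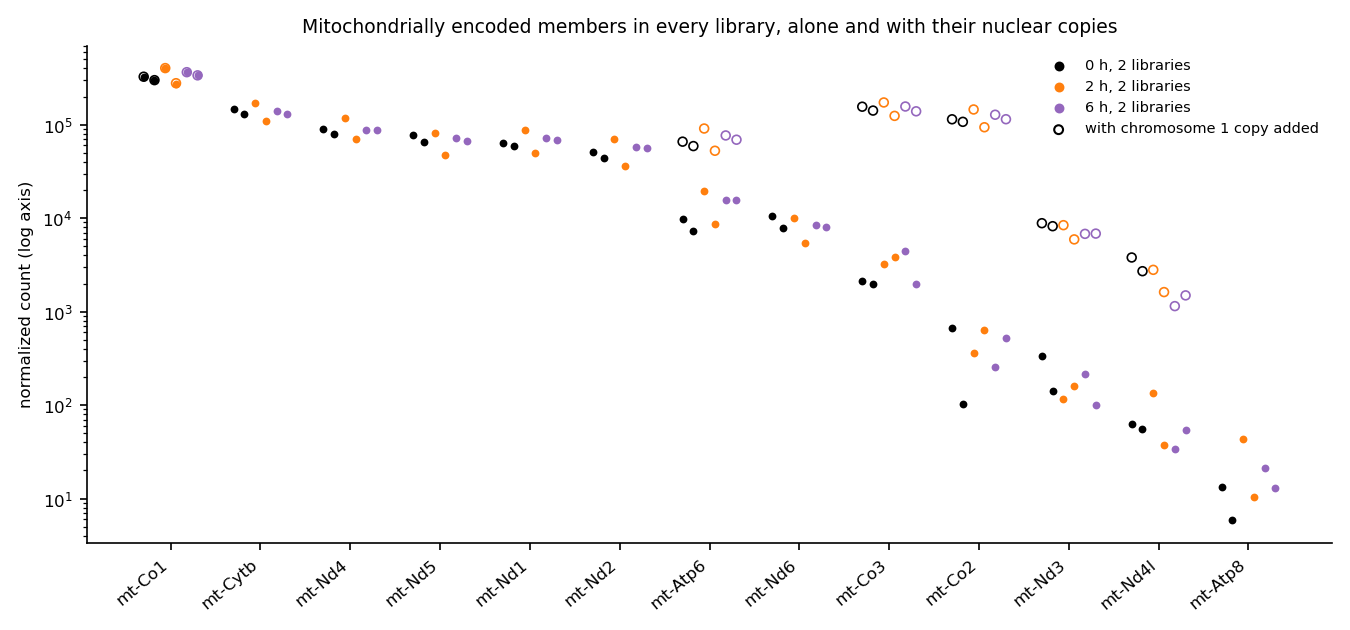
Normalized counts (log axis) of the 13 mitochondrially encoded members in the 6 libraries, ordered by mean. Filled points are the mitochondrial gene alone and open points the sum with its chromosome 1 copy. For mt-Co2 the sum was 93850 to 145385 against 104 to 676 for the gene alone.

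Other genes of the pathway were followed as 6 lists. The nuclear subunits of ATP synthase, which uses the proton gradient, were one of them. Of 18 genes, 4 rose and 0 fell at 2 h (12.3% and 14.2% of all genes), and 4 rose and 2 fell at 6 h against 0 h (23.7% and 21.7% of all genes), with medians of 0.22 and 0.07. The share that rose at 6 h, 22.2%, was near that of all genes. None fell at 2 h at an unadjusted p below 0.05 in DESeq2 or edgeR. Atp5b, the catalytic beta subunit, rose from 26825 and 26435 normalized counts at 0 h to 33701 and 38864 at 2 h and 38619 and 37772 at 6 h (0.52 ± 0.11 at 6 h, DESeq2 adjusted p = 1.72e-05). Atp5k, a small subunit of the dimer, fell at 6 h (-0.65 ± 0.25, DESeq2 adjusted p = 0.0258), and Atp5g2, which encodes the c subunit of the rotor ring, fell from 2 h to 6 h (-0.64 ± 0.12, DESeq2 adjusted p = 4.06e-07). Atp5c1, the central stalk subunit, rose by 0.23 at 2 h and fell by 0.23 from 2 h to 6 h on the log2 scale. Both calls were lost with the replicate block and without any 1 of the 0 h or 6 h libraries. The call at 2 h was also lost with edgeR and with library totals. That of Atp5k was lost without replicate 1 of 0 h or either 6 h library. With library totals 0 genes of the list were called higher at either time point. Without either 0 h library 0 were called higher at 2 h, without either 6 h library 1 was, and without replicate 1 of 2 h 11 were. Without any 1 of the 0 h or 6 h libraries 1 was called higher at 6 h.

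Transcripts of factors that assemble the complexes were another list. Of 44 assembly factor genes with an adjusted p, 24 fell and 3 rose at 6 h against 0 h, with a median of -0.58. At 2 h, 6 fell (13.6%) and 1 rose (2.27%), with a median of -0.16, while 14.2% of all genes fell and 12.3% rose, so that the share of fallers was near the background. The share that fell at 6 h was 54.5%, against 21.7% of all genes and 14.1% of the nuclear members, and this difference was not tested. The share that rose was 6.82%, against 23.7% of all genes, and the 3 became 1 without replicate 2 of 0 h or either 6 h library. Uqcc3, needed to build complex III, had 115 and 145 normalized counts at 0 h, 83.9 and 167 after 2 h, and 30 and 21.5 after 6 h (-2.33 ± 0.45, DESeq2 adjusted p = 1.49e-06). In the other direction Ttc19, also a complex III factor, went from 1306 and 1172 to 2839 and 2801 (1.19 ± 0.17, DESeq2 adjusted p = 1.86e-11). At 2 h the number that fell became 15 with library totals, 1 without replicate 1 of 0 h and 2 without replicate 2 of 0 h. The extremes among those called at 2 h were Ndufaf4 (-0.80 ± 0.22) and Foxred1 (0.37 ± 0.14), both complex I assembly factors, and the call of Foxred1 was lost with library totals, with the replicate block and in 5 of 6 fits with a library left out. That of Ndufaf4 was lost without replicate 1 of 0 h. From 2 h to 6 h, 23 genes fell (52.3%, against 21.2% of all genes) and 6 rose (13.6%, against 24.1%), and the 23 became 14 without replicate 1 of 6 h. Cox11, which helps to insert copper into complex IV, rose by 1.32 ± 0.24 from 2 h to 6 h.

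Electron carriers and further subunits gave 6 fallers and 1 riser of 16 at 6 h, where 21.7% and 23.7% of all genes fell and rose. Coq9, which presents lipid substrate for a late step of ubiquinone synthesis, had 775 and 797 normalized counts at 0 h, 635 and 700 after 2 h, and 156 and 137 after 6 h (-2.42 ± 0.17, DESeq2 adjusted p = 1.51e-43). Coq10b, a ubiquinone-binding protein, had 402 and 369 at 0 h, 2137 and 1691 after 2 h, and 1285 and 1301 after 6 h (2.31 ± 0.16 at 2 h, DESeq2 adjusted p = 2.23e-42). Pdss1, which helps to make the side chain of ubiquinone, fell at 2 h from 198 and 157 to 71.9 and 63.1 and had 151 and 150 at 6 h. The electron carrier cytochrome c itself, Cycs, had 2563 and 2493, then 3375 and 2780, then 2950 and 2921 counts, and did not pass the test at either time point.

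Of 30 genes for mitochondrial DNA transcription and RNA handling, 16 fell and 0 rose at 2 h (53.3%, against 14.2% of all genes; 1 was higher at an unadjusted p below 0.05 in DESeq2 and 2 in edgeR), and 15 fell and 3 rose at 6 h (21.7% and 23.7% of all genes). From 2 h to 6 h, 11 rose and 5 fell (24.1% and 21.2% of all genes). The shares that rose at 6 h against 0 h and fell from 2 h to 6 h were below the background. The 3 that rose became 1 with library totals, 6 with GC correction, 1 without either 0 h library or replicate 1 of 6 h, and 5 without either 2 h library. The other 14 did not pass at 2 h, among them the mitochondrial RNA polymerase gene Polrmt (-0.28) and Lrpprc (0.21), which stabilizes mitochondrial transcripts. Without replicate 1 of 0 h the 16 became 9. At 6 h the 15 became 7 to 9 without any 1 of the 0 h or 6 h libraries. From 2 h to 6 h the 11 became 7 without replicate 1 of 6 h. Tfam, which packages mitochondrial DNA and starts its transcription, had 1145 and 1035 normalized counts at 0 h, 645 and 566 after 2 h, and 801 and 784 after 6 h (-0.85 ± 0.14 at 2 h, DESeq2 adjusted p = 8.36e-08). Mterf1a, a mitochondrial transcription termination factor, was at 106 in both 0 h libraries, 11 and 5.2 after 2 h, and 34.2 and 47.3 after 6 h. Tfb1m, which methylates the small mitochondrial ribosomal RNA, was at 139 and 112, then 58.9 and 88.9, then 21.4 and 14, a log2 fold change of -2.83 ± 0.44 at 6 h (DESeq2 adjusted p = 9.77e-10). Fastkd5, a processing factor for mitochondrial transcripts, first fell and then rose, from 341 and 344 to 215 and 127 and then 901 and 796. The smallest fall called at 2 h was that of Grsf1, an RNA granule protein (-0.35 ± 0.11), which was lost without any 1 of the 0 h or 6 h libraries.

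Of 13 nuclear regulators of these genes, 3 rose at 2 h, 9 rose at 6 h against 0 h and 7 rose from 2 h to 6 h (12.3%, 23.7% and 24.1% of all genes), and 0 fell in the 3 comparisons (DESeq2), although 1 was lower at an unadjusted p below 0.05 at 2 h and 1 from 2 h to 6 h. In edgeR 1 was lower at an unadjusted p below 0.05 in each comparison, and that from 2 h to 6 h was called. Nrf1, the factor of the GCATGCGC string, had 550 and 555 normalized counts at 0 h, 595 and 670 after 2 h, and 2334 and 2263 after 6 h (2.06 ± 0.13, DESeq2 adjusted p = 6.60e-56). Gabpa, the DNA-binding part of GABP, went from 1109 and 1085 at 0 h to 1828 and 1753 at 6 h (0.71 ± 0.21, DESeq2 adjusted p = 0.00293). Yy1 rose at 2 h, from 715 and 774 to 1671 and 1161, and had 1588 and 1486 at 6 h. Ppargc1a, a coactivator of mitochondrial biogenesis, had 914 and 849, then 1071 and 814, then 1355 and 1332 counts (0.61 ± 0.17 at 6 h, DESeq2 adjusted p = 0.00124). The smallest rises called were those of Perm1 at 2 h (0.86 ± 0.33), Pprc1 at 6 h (0.56 ± 0.15) and Gabpb2 from 2 h to 6 h (0.42 ± 0.16), and that of Perm1 was lost without any 1 library. The call of Gabpb2 was lost with library totals, with GC correction and in 5 of 6 fits with a library left out, and that of Pprc1 with library totals and without replicate 2 of 0 h or replicate 1 of 6 h. Without replicate 2 of 0 h or replicate 1 of 6 h, 5 of the list were called higher at 6 h, and without either 6 h library 4 rose from 2 h to 6 h. Without replicate 2 of 0 h or replicate 1 of 6 h the calls of Gabpa and Ppargc1a against 0 h were lost.

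In the tricarboxylic acid cycle and pyruvate entry list, 8 of 26 genes rose and 6 fell at 6 h, with a median of 0.11. The shares, 30.8% and 23.1%, compare with 23.7% and 21.7% of all genes. With library totals 4 were called higher and 11 lower, and 4 or 5 were called higher without any 1 of the 0 h or 6 h libraries. The kinases that switch off pyruvate dehydrogenase moved in opposite directions. Pdk2 had 473 and 586 counts at 0 h and 208 and 195 at 6 h, and Pdk3 had 376 and 377 at 0 h and 1067 and 1068 at 6 h (log2 fold changes -1.40 ± 0.21 and 1.5 ± 0.14, DESeq2 adjusted p = 3.38e-10 and 6.79e-27). At 2 h the extremes were Pdp1, a phosphatase that switches it on (-0.75 ± 0.14), and Pdk4, another kinase (0.82 ± 0.20), whose call was lost without either 0 h library. The calls printed above with an adjusted p for Nrf1, Coq9, Coq10b, Uqcc3, Ttc19, Tfam, Tfb1m, Pdk2 and Pdk3 were kept in the 9 other settings and with each library removed in turn.

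**Figure D5:**
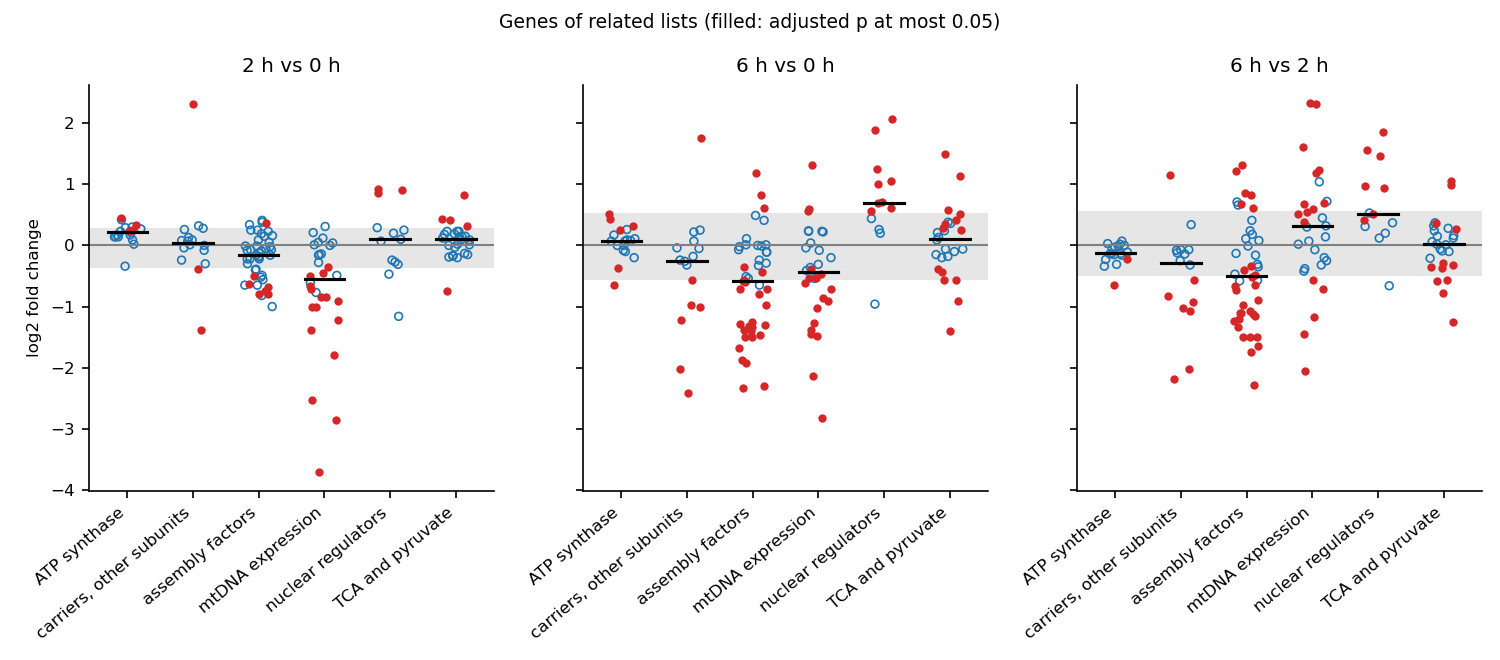
Log2 fold change (DESeq2) of each gene in 6 related lists, in the 3 comparisons. Filled points passed an adjusted p of 0.05, black bars are list medians over genes with an adjusted p, and the grey line and band are the median and middle 50% of all genes. Genes of mitochondrial DNA expression lay low at 2 h, assembly factors low and nuclear regulators high at 6 h.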

How the data were processed

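Libraries were made from RNA after poly(A) selection with a stranded kit and sequenced as paired reads. The authors aligned reads to mm10 with Bowtie2 2.2.9 and quantified genes with RSEM 1.3.0, per the labels and the published methods. The annotation release and the strand setting of RSEM are not given in the sources used here. The deposited tables hold, per gene and library, the expected count (RSEM's estimate, which divides shared reads between loci), the TPM and the FPKM. The expected counts deposited by the authors were rounded to whole numbers for testing, the deposited TPM were used for levels, and the deposited FPKM were not used.

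All 6 libraries were fitted together with DESeq2 1.42.0 in R 4.3.3 (Wald test, group as the only factor, median-of-ratios size factors, log2 fold changes without shrinkage). P-values were adjusted by Benjamini-Hochberg over all genes tested in a comparison, with 0.05 as the limit for a call. Library totals of 25959298 to 28573067 make counting error small for abundant members, and 2 libraries per group limit the precision. The other settings were edgeR 4.0.16 (quasi-likelihood), TMM factors, library totals, size factors without mitochondrial genes, a mean count of at least 10, a replicate block, GC correction (loess, span 0.5), both together, and, chosen after seeing the data, addition of the identical copies. Each library was also left out in turn. Such a fit leaves a single library in its group, so its calls take no account of the spread within that group. The ratio of mitochondrial to nuclear counts was compared by a two-sided exact permutation test. The fits were tested on simulated data.

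Replicate numbers are not stated to mark a shared preparation, so they were not taken as pairs. The members and lists were chosen with earlier results of these data known. Genes were named by rule: all mitochondrial members, the 5 highest and 5 lowest nuclear log2 fold changes per comparison among those averaging 100 or more normalized counts, the 5 highest TPM at 0 h, members past 2-fold, isoform pairs, and the extreme called genes of each list. A gene that the rule names is not reported here. The other called members, and Sdha, Sdhd, Cycs, Tfam, Gabpa and Ppargc1a, were named after their values were seen. Positions are from GENCODE M21 (GRCm38), which matched 42548 of 43432 genes, and promoters from RefSeq (GRCm38.p6).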

Additional observations from a re-analysis of the deposited data

Results flagged for a closer look

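A signal appeared in genes outside the respiratory chain list, the mitochondrial ribosomal RNAs mt-Rnr1 and mt-Rnr2, which are not protein coding and lie on the same mitochondrial genome. The normalized counts of mt-Rnr1 were 14201 and 14567 at 0 h, 30767 and 19979 after 2 h, and 35213 and 32796 after 6 h. Those of mt-Rnr2 were 18290 and 17952, then 51942 and 33478, then 54952 and 49401. In both genes every depolarized library lay above both controls. The log2 fold change of mt-Rnr1 was 0.82 at 2 h and 1.24 at 6 h against 0 h (DESeq2 adjusted p = 3.73e-04 and 5.36e-09), and that of mt-Rnr2 was 1.24 and 1.53 (DESeq2 adjusted p = 3.01e-08 and 1.20e-12). At 2 h the value of mt-Rnr1 was 0.46 without replicate 1 of 2 h and 1.08 without replicate 2 of 2 h, and that of mt-Rnr2 was 0.88 and 1.5. Each of these fits leaves a single library at 2 h, so it cannot measure the spread there. With GC-corrected counts mt-Rnr1 changed by 1.08 and 0.82 and mt-Rnr2 by 1.51 and 1.09, all of them still called. The libraries were selected for poly(A), and the part of that selection in these values was not tested.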

How the results depend on the processing

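The number of nuclear members called higher at 2 h, 7, became 4 with edgeR, 0 with library totals, 22 with GC correction and 0 to 24 with 1 library left out. The number lower at 6 h against 0 h, 9, became 28 with library totals and 4 to 13 with 1 library left out, and the number higher, 4, became 2 with edgeR, 1 with library totals, 8 with GC correction and 0 to 7. The number lower from 2 h to 6 h, 18, became 29 with library totals and 6 to 38. The cause was not tested.

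Of the mitochondrial members, 0 of which were called, TMM factors called 1 higher at 2 h. GC correction called 6 higher at 2 h, 4 lower and 1 higher at 6 h against 0 h, and 9 lower from 2 h to 6 h, and adding the copies called 1 lower at 6 h against 0 h and 1 against 2 h. With 1 library left out, 0 to 7 were lower and 0 to 6 higher at 2 h, 0 to 4 higher at 6 h against 0 h, and 0 to 6 lower and 0 to 8 higher from 2 h to 6 h. The log2 ratio of mitochondrial to nuclear counts at 2 h turned from -0.13 to 0.03 with every member weighted alike and to 0.06 with GC-corrected counts, which also turned it to -0.17 at 6 h against 0 h and -0.23 against 2 h. With 1 library left out it lay between -0.54 and 0.29 at 2 h and between -0.12 and 0.70 at 6 h against 2 h.

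The replicate block, with numbers that are not known to pair the libraries (same-number correlations of 0.281, -0.002 and 0.152), called 4 nuclear members higher at 2 h and 2 at 6 h against 0 h. GC correction with the replicate block called 17 nuclear and 5 mitochondrial members higher at 2 h, 4 mitochondrial members lower and 1 higher at 6 h against 0 h, and 8 lower from 2 h to 6 h. GC correction, without and with the block, turned mt-Nd4 at 6 h against 0 h to -0.36 and -0.35, and gave the same value both ways from 2 h to 6 h for mt-Atp6 (-0.40), mt-Co1 (-0.37), mt-Nd1 (-0.50), mt-Nd2 (-0.51), mt-Nd5 (-0.46) and mt-Nd6 (-0.64).

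With 1 library left out, log2 fold changes at 2 h ran from -0.19 to 0.36 for mt-Co1, -0.34 to 0.26 for mt-Cytb, -0.30 to 0.53 for mt-Nd1, -0.41 to 0.54 for mt-Nd2 and -0.28 to 0.47 for mt-Nd4. From 2 h to 6 h they ran from -0.19 to 0.36 for mt-Co1, -0.29 to 0.31 for mt-Cytb, -0.32 to 0.50 for mt-Nd1, -0.28 to 0.67 for mt-Nd2 and -0.41 to 0.33 for mt-Nd4. For mt-Co2 at 6 h against 0 h they ran from -0.79 to 1.91.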
